A study of Mus musculus with 24 samples.

Results

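Skeletal muscle and heart were compared in how gene expression differed between treated and untreated mice with pancreatic cancer. For each gene the quantity of interest was a difference of effects: the log2 fold change of KPC+GnP over KPC in muscle, minus the same log2 fold change in heart. The comparison used 16 of the 24 RNA-seq libraries of the series, 4 in each of 4 groups, and all 14509 genes that passed a filter on low counts out of 14537 listed for both tissues. Genes were then sorted into those that responded alike in both tissues, in opposite directions, or in 1 tissue while the response of the other was bounded near 0.

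All mice were male C57BL/6J, and all labels carry the mouse pancreatic cancer line KPC32908. KPC mice had these cells implanted in the pancreas and received vehicle. KPC+GnP mice had the same cells and received gemcitabine plus nab paclitaxel, a nucleoside analogue given with an albumin-bound taxane that stabilises microtubules. Controls (labelled no treatment, sham operated in the series description) entered the low-count filter, the scaling and the estimate of the spread between libraries. They did so in both tissues, and were no part of the contrasts. Their means are given as a reference level, although their labels also name the cell line. Doses, schedule, the time of collection, the age of the mice and which muscle was taken are absent from the labels, and the tumour model rests on 1 implanted line. The 16 libraries came from 11 animals, of which 5 gave both tissues, so that the muscle and heart comparisons share no library but share animals. The labels of the tissues were borne out by their markers. Skeletal myofibre markers summed to between 203529 and 352964 CPM (read counts relative to a normalised library size) in the 12 muscle libraries against 672 to 2214 CPM in the 12 heart libraries, and cardiomyocyte markers to between 32101 and 71238 CPM in heart against 139 to 1137 CPM in muscle.

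Cancer cachexia is the loss of muscle, heart and fat mass that accompanies a tumour. In muscle, inflammatory cytokines, glucocorticoids and reduced insulin and IGF signalling act on FoxO transcription factors, which raise the muscle-specific ubiquitin ligases atrogin-1 (Fbxo32) and MuRF1 (Trim63), and these ligases mark proteins for the proteasome. The heart expresses both ligases too, but remodels through its own programme of natriuretic peptides and myosin isoforms, and both tissues answer interleukin-6 with acute-phase genes.

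The promoter of Trim63 is shown because this ligase had a large muscle effect, and because FoxO and glucocorticoid receptor elements are known regulators of it. The 300 bases of the RefSeq window, from 250 before to 50 after the gene start (build GRCm38.p6, chr4:134314870-134315169, plus strand), are printed 5′ to 3′ with the motif matches in capitals.

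Trim63 promoter: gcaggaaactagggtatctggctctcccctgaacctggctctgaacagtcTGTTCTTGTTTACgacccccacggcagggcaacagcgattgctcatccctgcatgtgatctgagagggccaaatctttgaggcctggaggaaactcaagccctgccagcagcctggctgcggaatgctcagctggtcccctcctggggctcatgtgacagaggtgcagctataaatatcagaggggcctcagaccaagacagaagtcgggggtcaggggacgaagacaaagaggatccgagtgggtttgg

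The capitals hold 2 adjacent matches that do not overlap. The first is the glucocorticoid receptor half-site AGAACA, read on the strand opposite to the gene at bases -200 to -195 from the start. The second is the FoxO core TGTTTAC, read on the strand of the gene at bases -194 to -188. Of the 10963 tested genes with a window in the RefSeq table, 3.18% held the FoxO core on either strand and 15% the half-site. The full receptor element was not searched for. A match is a description of the sequence and not of binding.

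Chemotherapy was followed by far more called changes in muscle than in heart. In muscle 6436 genes passed an edgeR adjusted p of 0.05, which is 44.4% of the genes tested, with 3261 higher (22.5%) and 3175 lower (21.9%) in KPC+GnP. In heart 791 genes passed (5.45%), 480 higher (3.31%) and 311 lower (2.14%), and 3005 had an unadjusted p under 0.05. The difference of effects itself passed the test for 3725 genes (25.7%), with the muscle effect above the heart effect for 1813 (12.5%) and below it for 1912 (13.2%). The effect in muscle was the larger of both estimates for 3179 of these genes, the heart effect for 546, and for 2351 of them the estimates had opposite signs. Median standard errors were 0.21 log2 units in muscle, 0.21 in heart and 0.30 for the difference. For 4458 genes (30.7%) the 4 KPC+GnP and the 4 KPC libraries did not overlap in muscle, and for 1163 genes (8.02%) they did not overlap in heart.

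By class, 225 genes (1.55%) were called in both tissues with the same sign, 126 higher and 99 lower. Another 61 (0.42%) were called in both with opposite signs, 33 of them higher in muscle and lower in heart. A muscle-only response, called in muscle and for the difference while the 95% interval of the heart effect stayed within 1.5-fold either way, was found for 1509 genes (10.4%), 418 higher and 1091 lower. Another 1563 genes (10.8%), 1016 higher and 547 lower, had the same calls and none in heart, but a heart interval reaching past 1.5-fold. The split by direction thus differed with the width of the heart interval. The mirror of muscle only, the class heart only, held 59 genes (0.407%), 35 higher and 24 lower. In 177 more (1.22%) the muscle interval reached past 1.5-fold. For 340 genes (2.34%) the difference was called and neither tissue was. For 3078 genes called in muscle and not in heart, and for 269 called in heart and not in muscle, the difference did not pass the test, so these genes cannot be assigned to 1 tissue.

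**Figure D1:**
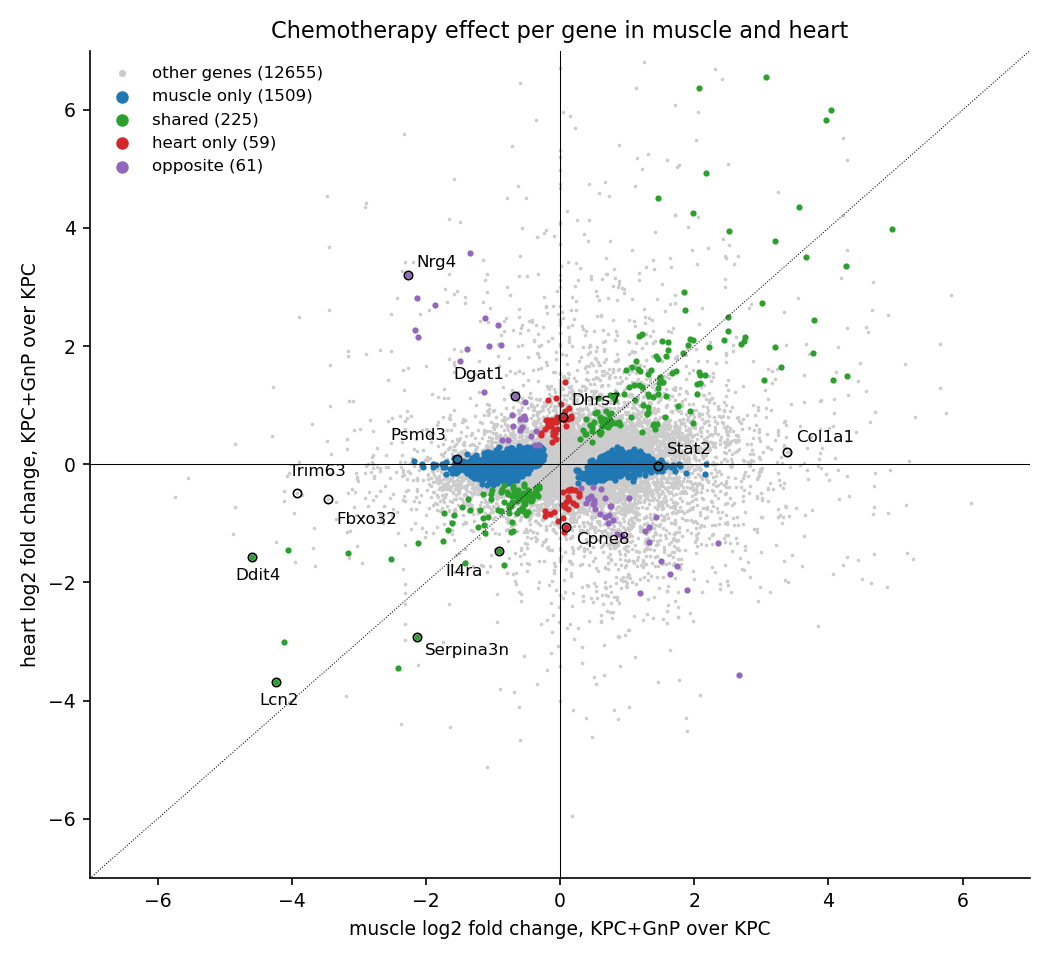
Log2 fold change of KPC+GnP over KPC in muscle (horizontal) against heart (vertical), 1 point per gene, coloured by class, with the dotted line marking equal effects. The 1509 muscle-only genes form a horizontal band, the 225 shared genes lie in the lower left and upper right, and 7 genes lie outside the plotted range of ±7.

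The number of genes called in heart moved with the setting of the fit far more than the number in muscle. The heart count fell to 226 when the controls were left out, to 214 when the heart was fitted on its own, and to 84 when limma voom gave each group its own weight. It was 197 without KPC+GnP heart library 1 and 1591 without KPC heart library 4. The weights were low for both KPC groups (0.48 in each tissue) and highest for controls (1.54 in heart and 1.88 in muscle), and a low weight means that the libraries of a group differed more among themselves. Under group weights the difference was called for 1941 genes, 1877 of them also called in the fit of 24 libraries, and 20 of the 225 shared genes, 1 of the 61 opposite genes, 861 of the 1509 muscle-only genes and 6 of the 59 heart-only genes stayed in their class.

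Some libraries stood apart. Total counts ran from 18285396 to 27382432 in the muscle libraries and from 11020931 to 20969551 in the heart libraries. In muscle they were separate between the groups compared, at 26031716 to 27382432 in KPC and 18285396 to 21379175 in KPC+GnP. In heart they overlapped, at 13241433 to 20969551 and 11020931 to 18356818. The part of depth in the muscle calls was not tested. Animal 141 gave KPC muscle library 1 and KPC heart library 4, and on the first principal component each of these lay nearer the controls than the other KPC libraries of its tissue did. Without this animal the difference was called for 6054 genes and the heart effect for 2308. KPC heart library 2, from animal 144, held 2202 CPM of summed macrophage markers where the other KPC hearts held 346 to 968 CPM, and 226 CPM of T and B cell markers where the others held 1.97 to 8.38 CPM. In bulk samples, fewer cells of a type and less RNA per cell cannot be told apart. A fit with the animal as a fixed block could use only the 10 libraries of the 5 animals with both tissues, and it called 3 genes for the difference. The same 10 libraries without the block also gave 3.

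**Figure D2:**
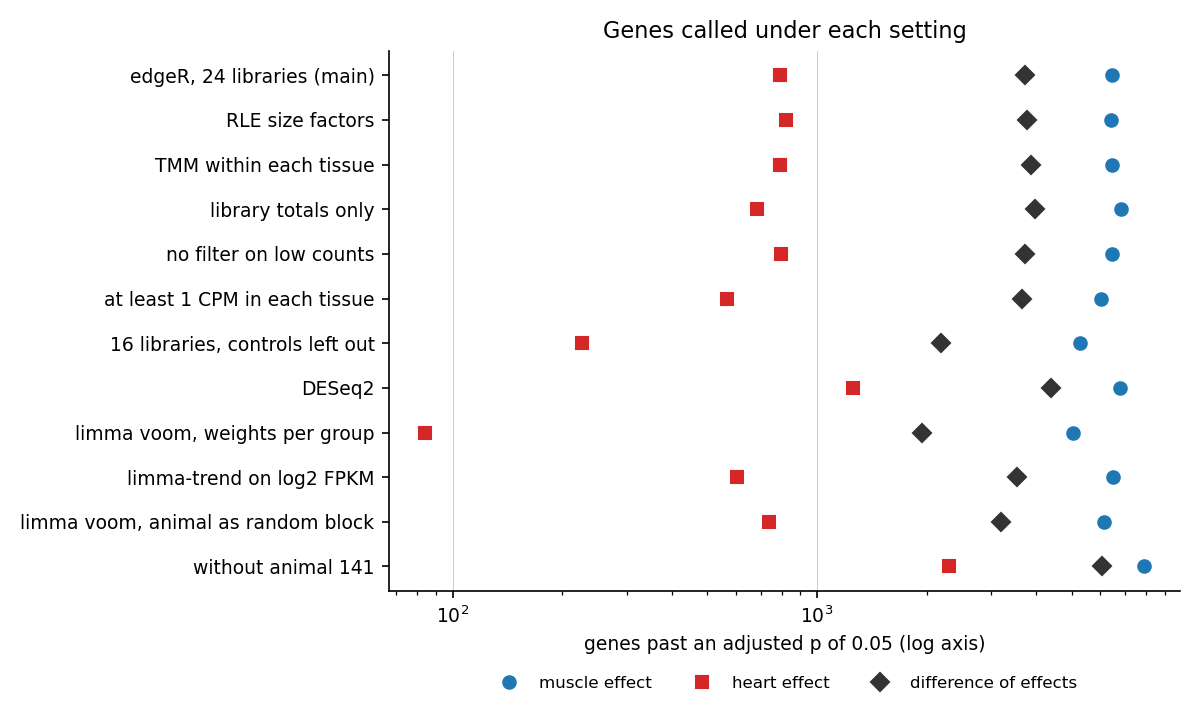
Number of genes past an adjusted p of 0.05 (log axis) for the muscle effect, the heart effect and their difference under 12 settings. Muscle counts lie between 5057 and 7891, heart counts between 84 and 2308, and difference counts between 1941 and 6054.

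The ligases Fbxo32 and Trim63 and the proteasome fell in muscle and were not called in heart. Fbxo32 (chromosome 15, 58175879-58214932, minus strand, GRCm38), which encodes atrogin-1, stood at 1803, 9436, 8601 and 8166 CPM in KPC muscle and at 688, 572, 694 and 600 CPM in KPC+GnP muscle, where controls had a mean of 793 CPM. In heart it stood at 120, 178, 327 and 280 CPM in KPC and at 159, 144, 108 and 192 CPM in KPC+GnP. The muscle groups did not overlap, with the lowest KPC value in animal 141, and the heart groups did. The log2 fold change was -3.45 ± 0.39 (SE, n = 4 per group, edgeR adjusted p = 4.88e-06) in muscle and -0.59 ± 0.36 (adjusted p = 0.378) in heart, and the difference was -2.87 ± 0.52 (adjusted p = 0.00123). Trim63 (chromosome 4, 134315120-134329629, plus strand), whose promoter is printed above, was measured at 685, 6666, 5112 and 4670 CPM in KPC muscle and at 270, 349, 263 and 251 CPM in KPC+GnP muscle. In heart it was at 114, 145, 237 and 176 CPM in KPC and 92.0, 117, 107 and 163 CPM in KPC+GnP. Again only the muscle groups were separate, and the difference was -3.43 ± 0.56 (edgeR adjusted p = 0.000744). Of the 18 atrophy-related ligases measured, 7 fell and 2 rose in muscle, 2 fell in heart, and the difference was called lower for 4 and higher for 1, near the 25.7% called over all genes. The differences called lower numbered 8 without KPC muscle library 1, 7 without KPC heart library 4 and 9 without both, which are animal 141. The 2 heart calls became 0 under group weights, without controls, and without any 1 of KPC heart libraries 2 and 3 and KPC+GnP heart libraries 1, 2 and 4. The list median was -0.26 in muscle and 0.08 in heart. Fbxo21 was among the 4, with a muscle change of -0.84 against 0.15 in heart.

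For the proteasome, the complex that degrades ubiquitin-marked proteins, all 31 measured subunits fell in muscle, none was called in heart, and the difference was called lower for 30. The median log2 change was -1.17 in muscle, -0.16 in heart and -1.01 for the difference, beside 0.10, -0.02 and 0.06 over all genes tested. The called differences numbered 27 under group weights, 24 without controls and 21 when libraries were scaled by their totals. Without animal 141, 8 subunits were called lower in heart. Psmd3, a subunit of the regulatory lid, was at 145, 439, 333 and 374 CPM in KPC muscle and at 119, 108, 111 and 109 CPM in KPC+GnP muscle, against 66.7, 61.8, 67.2 and 76.1 CPM in KPC heart and 62.6, 70.2, 76.9 and 81.1 CPM in KPC+GnP heart. Its change was -1.53 ± 0.20 in muscle and 0.10 ± 0.20 in heart, with 95% bounds in heart of -0.31 and 0.50 (difference -1.63 ± 0.28, edgeR adjusted p = 0.000967). The ATPase subunit Psmc2 and the base subunit Psmd2 differed by -1.51 and -1.54. In heart, the KPC libraries for Psmd3 all lay below the control mean of 78.6 CPM.

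Of 32 autophagy and lysosome genes, 23 fell in muscle and 1 in heart, and 15 differences were called lower (median -0.58), against 7 without controls, 10 under group weights and 8 with library totals. Tfeb, a master transcription factor of lysosome genes, was at 118, 150, 143 and 166 CPM in KPC muscle and 65.7, 65.8, 57.8 and 73.5 CPM after treatment, with heart values of 13.2 to 20.1 and 18.2 to 22.7 CPM. Its muscle change was -1.14 and its heart change 0.19 (difference -1.32 ± 0.17, edgeR adjusted p = 0.000177). Wipi2, which acts in autophagosome formation, differed by -1.28. Ube4a, a ubiquitin chain elongation factor, had the largest fall of the muscle-only class among genes passing the naming rule. It was at 125, 392, 358 and 419 CPM in KPC muscle and 70.4, 77.1, 66.0 and 71.7 CPM in KPC+GnP muscle, but in heart at 32.2 to 39.3 and 32.0 to 41.6 CPM, and the changes were -2.18 in muscle and 0.05 in heart (difference adjusted p = 0.000244, edgeR).

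**Figure D3:**
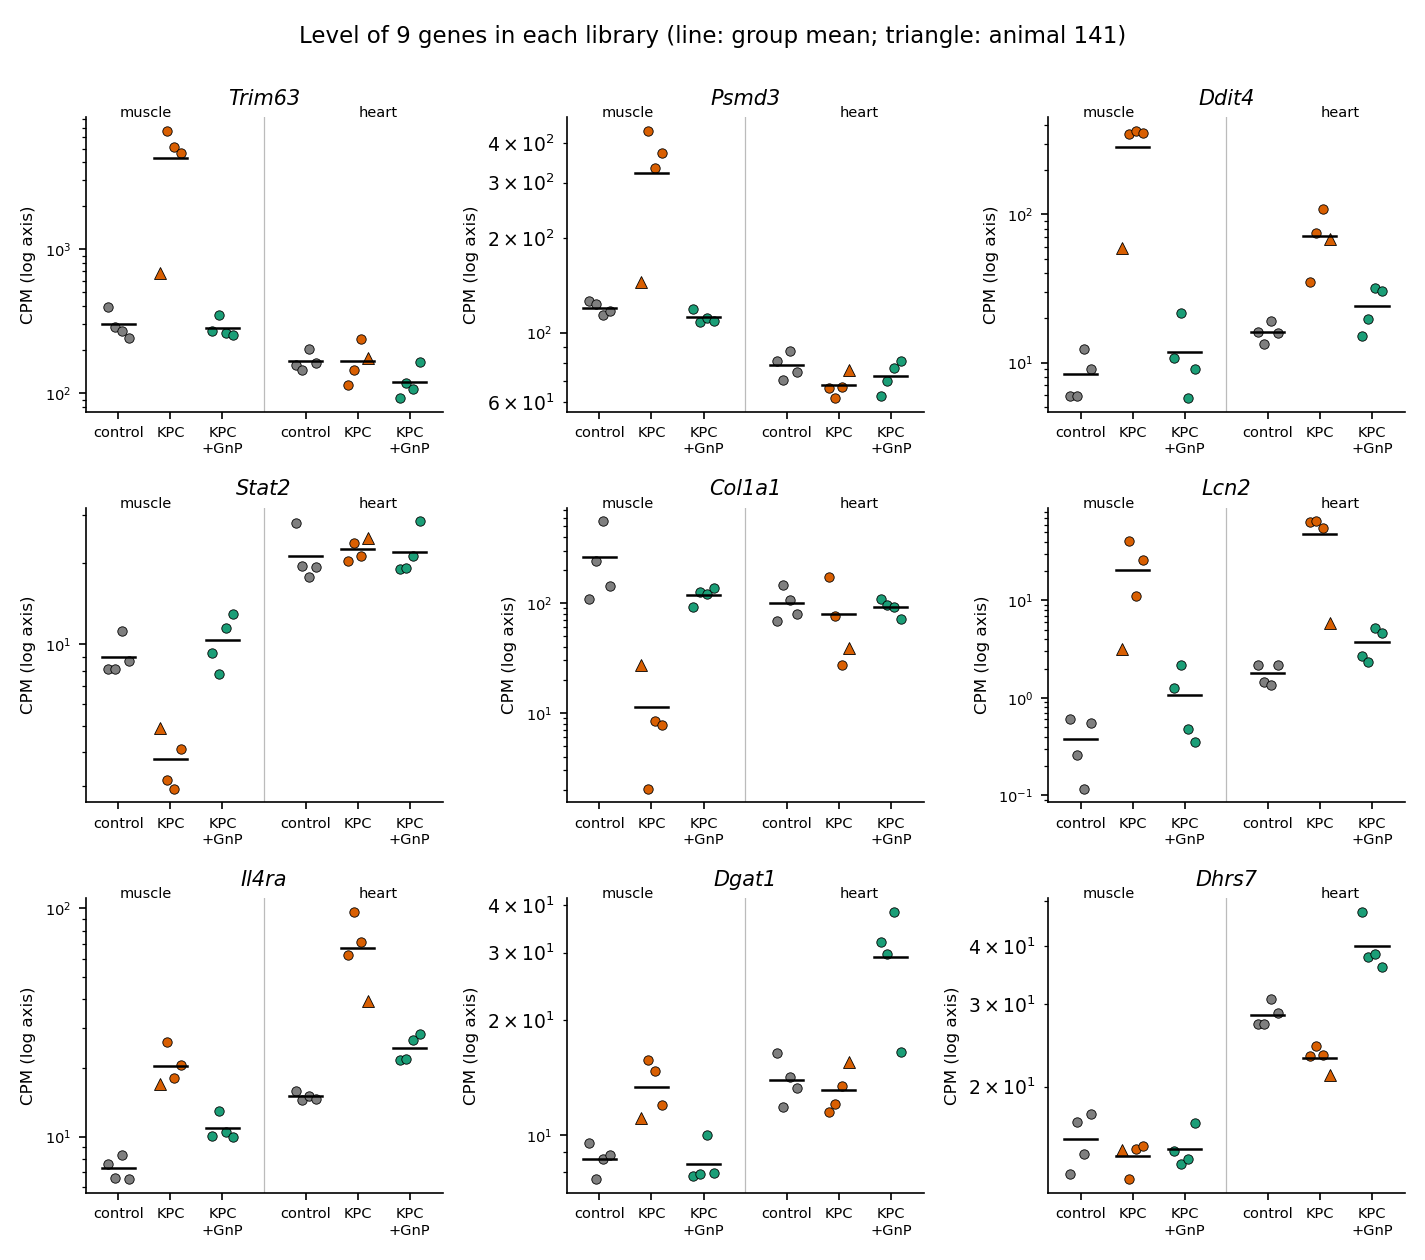
Level in CPM (log axis) of 9 genes in each library of the 6 groups, muscle on the left and heart on the right of each panel, with lines at group means and triangles for animal 141. Trim63, Psmd3 and Ddit4 are high and Stat2 and Col1a1 low in KPC muscle, Lcn2 and Il4ra fall in both tissues, and Dgat1 and Dhrs7 are higher in KPC+GnP than in KPC hearts.

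Genes of the glucocorticoid response fell in muscle, and in heart part of the same list was called. Of 22 genes of the glucocorticoid response, 18 fell and 1 rose in muscle (median -1.50), 6 fell in heart (median -0.35), and 9 differences were called, all lower. The 6 heart calls became 0 without controls, 1 under group weights and 1 without KPC heart library 2. Foxo1, the transcription factor named above, was at 222, 390, 290 and 271 CPM in KPC muscle and 90.7, 134, 37.3 and 37.5 CPM after treatment, and between 37.4 and 53.1 CPM in all 8 hearts. Its difference was -2.05 ± 0.40 (edgeR adjusted p = 0.00189). Klf15, a glucocorticoid-induced regulator of amino acid breakdown, fell in muscle (-1.97) and was at -0.16 in heart, which was not called. Glul, glutamine synthetase, fell in muscle (-1.98) and was at -0.43 in heart, and its called difference was lost under group weights (adjusted p = 0.0768, limma).

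Ddit4 and Cebpd were called in both tissues and differed in size. Ddit4, which encodes the mTORC1 inhibitor REDD1, was at 59.3, 351, 368 and 357 CPM in KPC muscle and 10.7, 21.7, 5.74 and 8.98 CPM after treatment. The heart libraries stood at 34.9, 75.1, 110 and 68.0 CPM in KPC and 15.1, 19.7, 31.7 and 30.4 CPM after treatment. Groups did not overlap in either tissue. The changes were -4.59 ± 0.51 and -1.57 ± 0.45, and the difference of -3.02 ± 0.64 passed the test (edgeR adjusted p = 0.00298). The heart call had an adjusted p of 0.0446 and missed the threshold under weights (0.113). Cebpd, a transcription factor induced by both glucocorticoids and interleukin-6, changed by -4.06 in muscle and -1.45 in heart (difference adjusted p = 0.00436, edgeR), and its heart call was likewise lost under weights (0.151). Pdk4, the kinase that inhibits pyruvate dehydrogenase, changed by -3.16 and -1.50, with a difference that was called (adjusted p = 0.026, edgeR) but not under weights (0.113). Fkbp5, a glucocorticoid-induced cochaperone, fell in muscle (-2.42) and was at -1.16 in heart, and its heart effect and its difference missed the threshold (adjusted p = 0.062 and 0.0699, edgeR).

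Most translation initiation genes fell in muscle. Of 22, 20 fell and 1 rose in muscle (median -0.84), 2 fell in heart (median -0.32), and 13 differences were called lower and 1 higher. With library totals 7 differences were called lower, and without animal 141 the heart calls rose to 10. Eif4ebp1, the repressor of cap-dependent translation 4E-BP1, was at 71.4, 473, 343 and 443 CPM in KPC muscle and at 29.1, 39.8, 23.8 and 35.1 CPM after treatment, close to the control mean of 31.5 CPM. Heart values were 41.0 to 59.8 and 39.7 to 49.2 CPM, which overlap. The difference was -3.24 ± 0.47 (edgeR adjusted p = 0.000338). Eif4b, an initiation factor that assists RNA unwinding, fell in muscle (-1.09) and was at -0.34 in heart, where it was not called. Tsr1 and Ddx56, both ribosome assembly factors, had log2 fold changes of -2.04 and -1.90 in muscle against -0.05 and -0.05 in heart, neither of the latter called. Akt1, the kinase of the insulin and IGF pathway, had a log2 fold change of -1.73 ± 0.25 in muscle and -0.00 ± 0.24 in heart (difference adjusted p = 0.00201, edgeR). Of 28 genes of IGF, insulin and myostatin signalling, 12 fell and 6 rose in muscle and 1 fell in heart. The difference was called lower for 10 of them and higher for 1. Over all genes, 44.4% were called in muscle, 5.45% in heart and 25.7% for the difference. The differences called lower numbered 6 under group weights and 6 without controls. Mstn, the growth inhibitor myostatin, fell by 1.21 in muscle and stood at no more than 0.881 CPM in any of the 8 hearts. Its called difference was lost under weights (adjusted p = 0.229, limma). Igf1 rose in muscle (1.27, adjusted p = 0.00136) and was at 0.46 in heart (adjusted p = 0.378), and the difference was not called (adjusted p = 0.141, edgeR).

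Several acute-phase genes fell in both tissues. Lcn2 (chromosome 2, 32384633-32388252, minus strand), the iron-carrier binding protein lipocalin-2, was at 3.19, 41.1, 11.1 and 25.8 CPM in KPC muscle and 1.27, 2.15, 0.484 and 0.350 CPM after treatment. In heart it was at 64.4, 65.1, 54.9 and 5.82 CPM and then at 2.68, 2.32, 5.24 and 4.63 CPM. In both tissues the groups were separate and animal 141 was the lowest KPC mouse. The changes were -4.24 ± 0.74 (edgeR adjusted p = 0.000129) and -3.69 ± 0.67 (adjusted p = 0.00352), and the difference was -0.55 ± 0.94 (adjusted p = 0.705), with 95% bounds of -2.50 and 1.40. Serpina3n, a secreted protease inhibitor of the acute phase, changed by -2.14 and -2.92. Lrg1, another acute-phase glycoprotein, changed by -1.13 and -1.16. Il4ra, the receptor chain shared by interleukin-4 and interleukin-13, was at 17.0, 25.9, 18.0 and 20.5 CPM in KPC muscle and 10.1, 12.9, 10.5 and 9.92 CPM after treatment. The heart libraries stood at 62.4, 96.7, 71.5 and 39.1 CPM and then 21.7, 21.9, 26.4 and 28.1 CPM, with changes of -0.91 ± 0.19 in muscle and -1.46 ± 0.19 in heart (edgeR adjusted p = 0.000788 and 0.000423). Lrg1, Il4ra and Nfkbia, the inhibitor of NF-kappa-B, were chosen after their values were seen. The heart calls of Lcn2, Serpina3n, Lrg1 and Il4ra also held under group weights (adjusted p = 0.0333, 0.0226, 0.0333 and 0.00107, limma).

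Over the list of 19 measured interleukin-6 and acute-phase genes, 8 fell in muscle, 6 fell and 1 rose in heart, and 4 were in the shared class. The medians were -0.57 in muscle and -0.72 in heart. The median difference was 0.50. The difference was called lower for 3 and higher for 1, beside 25.7% of all genes called for it. Among the 3 was Il6ra, the interleukin-6 receptor chain, which was at 17.7, 280, 108 and 151 CPM in KPC muscle and 6.24 to 11 CPM after treatment, but at 6.08 to 26.3 and 4.56 to 11.9 CPM in heart (difference -3.49 ± 0.74, edgeR adjusted p = 0.003). Nfkbia changed by -1.23 and -1.06, and the metallothionein Mt2 by -4.11 and -3.02, with a heart call for Mt2 that was lost under weights (adjusted p = 0.089, limma). Mt2 has a similar relative, Mt1, and Serpina3n belongs to a cluster of similar genes, so reads of each may have been split in the counting. Macrophage markers summed to 346 to 2202 CPM in KPC hearts and 331 to 608 CPM in KPC+GnP hearts. Their part in the acute-phase result was not tested, and without KPC heart library 2 the list median in heart was -0.53, with 5 genes called lower. Without animal 141 that median was -1.03, with 11 genes called lower in heart. The difference was then called higher for 7 and lower for 4.

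Cytosolic ribosomal proteins had medians of -0.46 in muscle and -0.49 in heart, with 31 of 46 measured called lower in muscle, 18 called lower in heart, and none called for the difference (median -0.02). Rpl4 was at 1050, 1037, 993 and 1005 CPM in KPC muscle and 649, 640, 656 and 684 CPM after treatment. Its heart values were 583, 772, 603 and 440 CPM and then 443, 435, 521 and 463 CPM, so that the groups overlapped in heart alone. Rpl35 and Rps24 showed larger heart estimates (-0.86 and -0.80) than muscle estimates (-0.11 and -0.16), but the differences were not called (edgeR adjusted p = 0.0643 and 0.103). The 18 heart calls became 0 under group weights and without controls, 1 without KPC heart library 2, and 43 without animal 141, where 7 differences were also called higher. Scaling by library totals gave 7 muscle and 4 heart calls and 2 differences called higher. Ribosomal protein genes have many processed copies in the genome, and how reads that fit several copies were assigned is not given in the sources used here.

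Interferon response genes rose in muscle, with no call in heart. Of 27 measured, 24 rose in muscle (median 1.29), none was called in heart (median 0.10), and 15 differences were called higher (median 1.21). Group weights left 15 muscle calls and 9 differences. Stat2 (chromosome 10, 128270559-128292849, plus strand), the signal transducer of type I interferon, was at 4.90, 3.15, 2.93 and 4.10 CPM in KPC muscle and 9.33, 7.75, 11.5 and 13.0 CPM after treatment, around the control mean of 9.02 CPM. Heart values were 20.4, 23.6, 21.3 and 24.7 CPM and then 19.0, 19.1, 21.3 and 28.6 CPM, where the groups overlapped. The changes were 1.46 ± 0.20 and -0.03 ± 0.19 with 95% bounds in heart of -0.42 and 0.35 (difference adjusted p = 0.00127, edgeR). Parp14, an interferon-induced ADP-ribosyltransferase, rose in muscle (1.11) and was at -0.12 in heart, and Ifit2, an interferon-induced RNA-binding protein, rose in muscle (1.63) and was at -0.21 in heart. Of 14 genes of class I antigen presentation, 8 rose in muscle and none was called in heart. The difference was called higher for 6, for 1 without controls and for 2 under group weights. Over all genes, 44.4% were called in muscle, 5.45% in heart and 25.7% for the difference. The muscle groups did not overlap for 4 of the 14, beside 30.7% of all genes. The immunoproteasome subunit Psmb9 was at 0.103 to 1.03 CPM in KPC muscle and 0.933 to 2.05 CPM after treatment, groups that overlap, with a difference of 2.01 ± 0.59 (edgeR adjusted p = 0.0167) that missed the threshold without controls (0.0533). Tnfaip2, which is induced by tumour necrosis factor, had the largest rise of the muscle-only class among genes passing the naming rule. It was at 16.1, 10.7, 9.39 and 11.1 CPM in KPC muscle and 52.4, 34.1, 67.8 and 56.5 CPM after treatment, and in heart at 23.3 to 38.1 and 20.3 to 34.3 CPM (difference 2.33 ± 0.29, edgeR adjusted p = 0.000177).

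Macrophage markers differed in sign between the tissues. All 12 markers had estimates above 0 in muscle and below 0 in heart, 7 were called higher in muscle and 2 lower in heart, and the difference was called higher for 11 (median 2.09). Mrc1, the mannose receptor CD206, was at 13.6, 7.03, 12.6 and 11 CPM in KPC muscle and 10.9, 54.4, 26.9 and 17.7 CPM after treatment. In heart it was at 107, 172, 63.0 and 44.7 CPM and then 47.6, 37.2, 44.5 and 33.3 CPM. The groups overlapped in both tissues, the difference was 2.57 ± 0.56 (edgeR adjusted p = 0.00362), and the muscle call was lost in 1 of the 16 fits that left out 1 library. Csf1r, the receptor for the growth factor of macrophages, differed by 1.66 and Ccr2, the chemokine receptor of inflammatory monocytes, fell in heart (-2.61) and was at 1.39 in muscle, which did not pass the test. Spp1, the secreted phosphoprotein osteopontin, was at 7.77, 275, 26.3 and 1.2 CPM in KPC heart, with KPC heart library 2 far above the others, and its difference was 6.41 ± 1.62. The integrin chain Itgam was high in the same library, at 25.1, 275, 34.1 and 8.31 CPM. Without that library the heart median of the list went from -0.99 to -0.39, no marker was called in heart, and 9 differences were called. Without animal 141 in both tissues the heart median was -1.26, 8 markers were called lower in heart, and 12 differences were called. On the muscle side, KPC+GnP muscle library 2 held 369 CPM of summed macrophage markers, the most of its group. Without it the muscle median went from 1.16 to 0.78, 2 markers were called higher in muscle and 8 differences were called. The muscle groups did not overlap for 2 of the 12 markers, beside 30.7% of all genes. Under group weights 1 marker was called in muscle, and 1 difference was called.

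Of 10 neutrophil markers, 1 rose in muscle, and in heart 6 fell and 1 rose, with a median of -2.79 in heart against 0.29 in muscle. They summed to 18.3 to 239 CPM in KPC hearts and 8.23 to 185 CPM in KPC+GnP hearts, ranges that overlap, and to no more than 9.21 CPM in any muscle library. The difference was called higher for 3, beside 25.7% of all genes called for it. Among the 3 was Mmp9, a gelatinase of neutrophil granules. It was at 2.04, 12.7, 8.93 and 1.35 CPM in KPC heart and 1.18 to 3.89 CPM after treatment. Without KPC heart library 2, 2 were called lower in heart, and under group weights none was called for the difference. Ptx3, a secreted pattern recognition protein outside both marker lists, differed by 4.45 ± 1.07 (edgeR adjusted p = 0.00625). It was at 6.16, 0.291, 1.69 and 0.922 CPM in KPC muscle and 8.02 to 9.51 CPM after treatment, and in heart at 6.16, 10.2, 0.918 and 0.208 CPM and then 0.605 to 0.881 CPM.

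**Figure D4:**
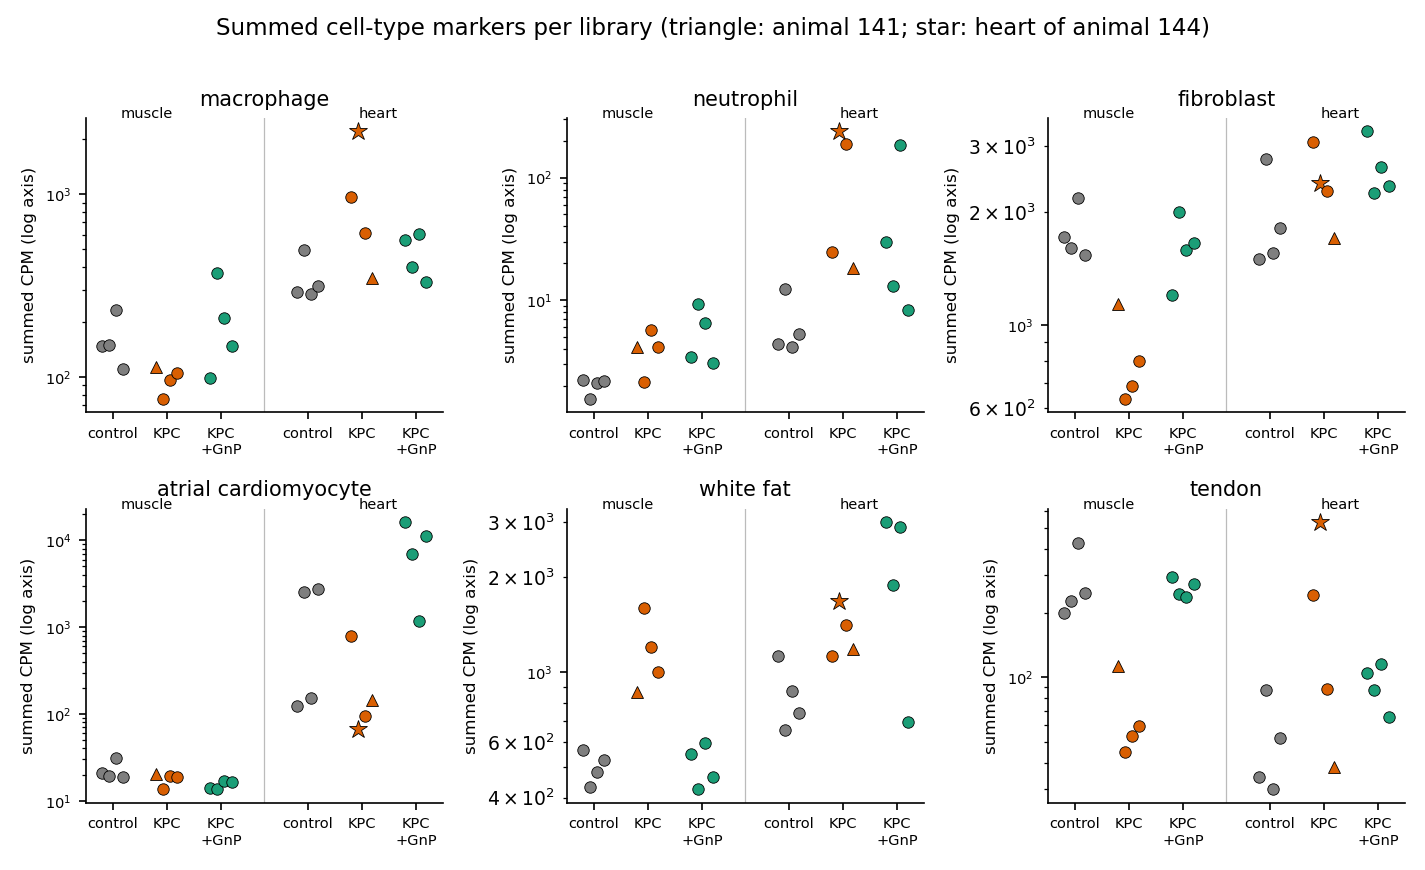
Summed CPM (log axis) of 6 cell-type marker lists in every library of the 6 groups, with triangles for animal 141 and a star for the heart of animal 144. Fibroblast and tendon markers are low in KPC muscle, macrophage markers peak in KPC heart library 2 at 2202 CPM, and atrial markers reach 16278 CPM in a KPC+GnP heart.

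Most extracellular matrix genes rose in muscle. Of 31 measured, 25 rose in muscle (median 1.79), 1 rose and 3 fell in heart (median 0.10, beside 5.45% of all genes called there), and 17 differences were called higher (median 1.53), with 10 under group weights. Col1a1 (chromosome 11, 94936224-94953042, plus strand), a chain of fibrillar collagen I, was at 27.2, 2.04, 8.42 and 7.79 CPM in KPC muscle and 91.7, 125, 121 and 136 CPM after treatment, still under the control mean of 262 CPM. The heart libraries stood at 174, 76.7, 27.3 and 39.2 CPM and then 108, 95.5, 91.4 and 71.1 CPM. The groups were separate in muscle and overlapped in heart, and the difference was 3.18 ± 0.84 (edgeR adjusted p = 0.00948). Col3a1 differed by 3.79 and the microfibril protein Fbn1 by 2.66. Nid1, a basement membrane protein, was in the muscle-only class, at 1.30 in muscle and -0.01 in heart. Fibroblast markers summed to 634 to 1136 CPM in KPC muscle and 1200 to 2006 CPM after treatment, and tendon markers to 45.1 to 113 and 238 to 294 CPM, so that both sums were separate between the groups. The part of these cells or of tendon in the pieces of muscle taken was not tested. Of 10 fibroblast markers, 9 rose in muscle, and 1 fell in heart, with 5 differences called higher. Prkg1, the cyclic GMP-dependent kinase of smooth muscle and other cells, was in the muscle-only class too, at 37.1, 14.0, 14.2 and 13.3 CPM in KPC and 90.3, 42.9, 74.8 and 62.3 CPM after treatment, with animal 141 highest in KPC. Heart values were 15.4 to 20.8 and 14.7 to 20.9 CPM.

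Mfap4, Neto2, S100b and Sfrp5 rose in both tissues. Mfap4, a microfibril-associated protein, was at 0.146 to 1.65 CPM in KPC muscle and 2.48 to 5.92 CPM after treatment, and at 1.28 to 5.45 and 9.89 to 31.9 CPM in heart. Neither tissue had overlapping groups, and the changes were 3.01 and 2.72. Neto2, an auxiliary subunit of kainate receptors, rose by 1.98 and 2.10, S100b, a calcium-binding protein of glia and fat, by 2.51 and 2.49, and Sfrp5, a secreted Wnt antagonist, by 2.18 and 4.93, the last with a called difference (-2.75 ± 0.98, edgeR adjusted p = 0.0439). Their heart calls did not hold under group weights, with adjusted p of 0.192 for Mfap4, 0.32 for Neto2, 0.218 for S100b and 0.227 for Sfrp5 (limma).

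Among genes of cardiac remodelling, Myh7 fell and Nppa and Nppb rose in heart, with wide errors. Myh7 (chromosome 14, 54970684-54994626, minus strand), the beta myosin heavy chain, was at 255, 2809, 6066 and 400 CPM in KPC heart and 26.8, 54.0, 121 and 280 CPM after treatment, where controls had a mean of 60.0 CPM. In muscle it was at 320, 448, 85.1 and 174 CPM and then 1016, 85.7, 491 and 270 CPM. The highest treated heart lay above the lowest KPC heart, the heart change was -4.31 ± 0.94 (edgeR adjusted p = 0.0115), and the difference was 5.17 ± 1.23 (adjusted p = 0.00575). The heart call was lost under weights (0.102), whereas the difference held (0.0426, limma). Myh6, the alpha chain, did not pass the test in either tissue and was at 9235 to 24290 CPM in all 8 hearts. Nppa and Nppb, the natriuretic peptide precursors, were at 0 counts in all 8 muscle libraries, and no difference of effects is given for them. In heart Nppa was at 375, 28.0, 49.1 and 110 CPM in KPC and 9538, 4014, 532 and 6739 CPM after treatment, and Nppb at 63.0, 69.2, 61.4 and 41.7 CPM and then 244, 164, 77 and 200 CPM. All 4 treated hearts were above all 4 KPC hearts for both genes, with edgeR adjusted p of 0.0288 and 0.0418, and with limma under weights 0.0304 and 0.0933. Beside them stand the atrial markers, which summed to 67.8 to 789 CPM in KPC hearts, 1188 to 16278 CPM in KPC+GnP hearts and 124 to 2738 CPM in control hearts. Of the 7 atrial markers 4 rose in heart, 7 without KPC heart library 1, 2 without KPC heart library 2 or 3 or KPC+GnP heart library 1 or 2, and 1 under group weights. Nppa itself was among the 4, and the atrial light chain Myl4 went from 134, 1.28, 1.84 and 1.30 CPM to 2753, 1058, 215 and 1835 CPM. The part of atrial tissue in the pieces of heart taken was not tested.

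Of 9 white fat markers, 2 rose in heart and 1 fell in muscle, and 4 differences were called lower. Without KPC heart library 2, 6 rose in heart and 7 differences were called lower, without KPC+GnP heart library 4 the counts were 3 and 7, and under group weights 0 and 1. Leaving out KPC heart library 3 or KPC+GnP heart library 1 left 1 of the 2 heart calls. Pnpla3, a lipid droplet enzyme, was at 1.02, 0.371, 0.551 and 0.572 CPM in KPC heart and 27.8, 16.9, 20.1 and 2.63 CPM after treatment, against 3.33 to 10.3 and 2.60 to 5.32 CPM in muscle. Its difference was -5.34 ± 0.74 (edgeR adjusted p = 0.000244) and held under weights (0.0379, limma). Summed white fat markers were 1127 to 1689 CPM in KPC hearts and 693 to 3002 CPM in KPC+GnP hearts, and 866 to 1596 and 425 to 597 CPM in muscle. Brown fat markers summed to 310 to 611 CPM in KPC hearts and 679 to 1068 CPM in KPC+GnP hearts, which are separate, with 592 to 811 CPM in control hearts. In muscle they summed to 49.6 to 117 and 88.3 to 166 CPM, which overlap. Of the 6 measured, 2 rose in heart, Ucp1 and Cidea, and neither was called under group weights. In muscle 2 of the 6 rose and 1 fell, and 2 differences were called lower, with none under group weights. Ucp1, the uncoupling protein that defines brown fat, was chosen here after its values were seen. It was at 0.879 CPM in KPC heart library 1 and at 0 in the other KPC hearts, in all control hearts and in every muscle library, and at 256, 174, 301 and 0 CPM in the KPC+GnP hearts (edgeR adjusted p = 0.0185 in heart). Cidea, a lipid droplet protein of brown fat, was at 19.0, 15, 24.4 and 21.6 CPM in KPC heart and 152, 96.8, 141 and 19.3 CPM after treatment (edgeR adjusted p = 0.00455), with a called difference (adjusted p = 0.00735). For Ucp1, Cidea and Pnpla3 alike, KPC+GnP heart library 4 was the lowest of the treated hearts. Its brown fat sum of 679 CPM lay above all KPC hearts, although its Ucp1 was at 0 and its Cidea within the KPC range. The part of white or brown fat in the results for Pnpla3 and the next genes was not tested.

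Opposite responses were few, and included lipid and growth factor genes that fell in muscle and rose in heart. Dgat1 (chromosome 15, 76502015-76511953, minus strand), the enzyme of the last step of triglyceride synthesis, was the 1 gene that kept this class under group weights. It was at 11.1, 15.7, 14.7 and 11.9 CPM in KPC muscle and 7.80, 7.91, 9.97 and 7.93 CPM after treatment. In heart it was at 11.5, 12, 13.5 and 15.5 CPM and then 32.0, 29.8, 38.4 and 16.5 CPM. The groups did not overlap in either tissue, the changes were -0.67 ± 0.19 (edgeR adjusted p = 0.00743) and 1.15 ± 0.19 (adjusted p = 0.00142), and the difference was -1.82 ± 0.27 (adjusted p = 0.000361). Nrg4, a growth factor secreted by fat, fell in muscle (-2.26) and rose in heart (3.21), from 0.739 to 2.15 CPM in KPC hearts to 15.8, 10.8, 15.5 and 1.38 CPM after treatment, groups that overlap. For Nrg4 the difference held under weights (adjusted p = 0.0271, limma) and neither tissue's call did (0.141 and 0.147). Phlda3, a p53-induced repressor of Akt, fell by 0.89 in muscle and rose by 2.01 in heart, from 9.74, 6.11, 2.88 and 3.38 CPM to 31.4, 19.1, 31.4 and 8.44 CPM, a heart call lost under weights (adjusted p = 0.0584, limma). Stat5b, a transducer of growth hormone signals, changed by -0.70 and 0.64, and Phospho1, a phosphatase of phosphocholine, by -0.59 and 0.57.

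In the other direction, Spry1, an inhibitor of receptor tyrosine kinase signalling, was at 16.3, 15.1, 13.8 and 15.7 CPM in KPC muscle and 25.3, 20.6, 26.1 and 24.5 CPM after treatment. The heart libraries stood at 17.8, 21.3, 25.0 and 28.7 CPM and then 13.9, 15, 17.0 and 16.5 CPM, and neither tissue had overlapping groups. The changes were 0.66 ± 0.13 and -0.57 ± 0.13, and the difference was 1.23 ± 0.19 (edgeR adjusted p = 0.000414). Ly6e, an interferon-induced surface protein, changed by 0.75 and -0.71, Alox12, a lipoxygenase, by 2.36 and -1.33, and Lrrc52, an auxiliary subunit of potassium channels, by 1.90 and -2.13. The differences of these genes held under weights (adjusted p = 0.00384 for Spry1, 0.00341 for Ly6e, 0.0303 for Alox12 and 0.0106 for Lrrc52, limma), but their heart calls did not, nor did the muscle calls of Alox12 (0.0718) and Lrrc52 (0.07).

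Few genes responded in heart while muscle stayed within the bounds, and the copine Cpne8, the transferase Ggta1, the dehydrogenase Dhrs7 and the ligase Siah2 were among the 59. Dhrs7 (chromosome 12, 72650353-72664909, minus strand), a short-chain dehydrogenase, was at 23.3, 24.5, 23.3 and 21.1 CPM in KPC heart and 47.3, 37.8, 38.5 and 36.1 CPM after treatment. In muscle it was at 14.7, 12.7, 14.7 and 14.9 CPM and then 14.5, 13.7, 14.0 and 16.7 CPM. The heart groups were separate and lay on either side of the control mean of 28.5 CPM. The change was 0.79 ± 0.11 in heart (edgeR adjusted p = 0.000649) and 0.05 ± 0.11 in muscle, with 95% bounds in muscle of -0.18 and 0.28. Siah2, a ubiquitin ligase of the hypoxia response, rose from 5.42, 5.20, 3.67 and 5.04 CPM to 10.9, 10.3, 10.5 and 10.7 CPM in heart, while its muscle change was -0.06 ± 0.17 (difference -1.19 ± 0.24, edgeR adjusted p = 0.00209). Mrps6, a mitochondrial ribosomal protein, rose by 1.08 in heart. The gene Slc5a3 lies within it on the same strand in the annotation, so reads could be shared.

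Cpne8, a calcium-dependent membrane-binding protein of the copine family, was at 21.1, 29.3, 19.4 and 14.2 CPM in KPC heart and 9.45, 10.3, 9.94 and 10.5 CPM after treatment, toward the control mean of 7.07 CPM. In muscle all 8 libraries lay between 4.56 and 6.30 CPM. The change was -1.06 ± 0.17 in heart (edgeR adjusted p = 0.00121) and 0.08 ± 0.17 in muscle. Ggta1, which makes the alpha-galactosyl epitope of mouse cells, fell from 41.1, 41.4, 34.4 and 38.9 CPM to 22.6, 20.6, 22.5 and 28.8 CPM in heart (difference 0.79 ± 0.17, edgeR adjusted p = 0.00323). Cpne8, Ggta1, Dhrs7 and Siah2 kept their class under group weights. Ggta1 was chosen after its values were seen, as were Dgat1 and Gpihbp1. Ly6c1 and Flt1, both expressed by endothelium, fell by 1.14 and 0.91 in heart, and neither call held under weights (adjusted p = 0.0895 and 0.142, limma). Gpihbp1, which anchors lipoprotein lipase on capillaries, was in the shared class at -0.70 and -1.12. Summed endothelial markers overlapped between the heart groups, at 938 to 1838 CPM in KPC and 1111 to 1381 CPM in KPC+GnP.

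Genes tied to the drugs themselves were measured as well. Gemcitabine is activated by deoxycytidine kinase and its diphosphate inhibits ribonucleotide reductase. Dck was at 2.62, 0.631, 1.23 and 1.43 CPM in KPC muscle and 3.27, 7.05, 5.56 and 3.56 CPM after treatment, and in heart at 3.27 to 9.41 and 4.01 to 4.64 CPM (difference 2.03 ± 0.49, edgeR adjusted p = 0.00624). Rrm1, the large subunit of the reductase, was at 44.4, 20.7, 32.1 and 27.5 CPM and then 56.1, 55.6, 53.7 and 47.4 CPM in muscle, against 16.7 to 25.5 and 17.0 to 18.9 CPM in heart (difference 0.99 ± 0.24, edgeR adjusted p = 0.00567). Treated muscle lay near the control means of both, 4.49 and 51.1 CPM. These were the 2 differences called among 17 genes of gemcitabine handling, under the 25.7% called over all genes. Of the 17, 3 rose and 2 fell in muscle, where 44.4% of all genes were called, and none was called in heart. Of 23 tubulins and microtubule proteins, 6 rose and 4 fell in muscle, near the share of all genes there. In heart 2 rose, and 4 differences were called in each direction, beside 25.7% of all genes.

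Of 21 p53 target genes, 11 fell and 3 rose in muscle, 1 fell and 1 rose in heart, and 6 differences were called lower and 1 higher. Cdkn1a, the cell cycle inhibitor p21, was at 23.5, 320, 93.0 and 121 CPM in KPC muscle and 12.4 to 19.7 CPM after treatment, and at 34.9, 91.1, 78.7 and 35.4 CPM and then 21.5 to 25.2 CPM in heart. The groups were separate in both tissues, but the heart effect (-1.38 ± 0.48, edgeR adjusted p = 0.101) and the difference (-1.65 ± 0.68, adjusted p = 0.0746) missed the threshold. Sesn1, a p53- and FoxO-induced inhibitor of mTORC1, fell by 3.33 in muscle and had -0.64 in heart (difference adjusted p = 0.00186, edgeR). Mdm2, the ligase of p53, fell in muscle (-0.36) and was at 0.30 in heart, which did not pass the test. Of 25 proliferation genes, 6 rose and 1 fell in muscle, under the 44.4% of all genes called there, and 1 fell in heart. The difference was called higher for 6, near the 25.7% of all genes, for 3 under group weights and for 11 without animal 141. Without KPC+GnP muscle library 2 the muscle median of the list went from 1.17 to 0.49, and 3 genes rose and 2 fell in muscle. The replication helicase subunit Mcm2 was at 9.98, 2.86, 4.62 and 3.38 CPM in KPC muscle, with animal 141 highest, and at 10.2 to 12.2 CPM after treatment (difference 1.57, edgeR adjusted p = 0.0067).

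Nuclear genes of oxidative phosphorylation had a muscle median of 0.46 and a heart median of -0.06. Of 45, 19 rose in muscle, none was called in heart, and 7 differences were called higher, beside 44.4%, 5.45% and 25.7% of all genes. These counts moved with the scaling. Library totals gave 41 muscle and 30 difference calls, while the median of all genes in muscle went from 0.10 to 0.31 under that scaling, and leaving out KPC muscle library 1 gave 35 and 30. Ndufs1, a core subunit of complex I, was at 436, 297, 295 and 279 CPM in KPC muscle and 751, 485, 678 and 527 CPM after treatment, with the highest KPC value again in animal 141. Its difference was 0.78 ± 0.23 (edgeR adjusted p = 0.019). Cox7b, a subunit of cytochrome c oxidase, rose in muscle (0.56) and was at -0.47 in heart, which did not pass the test.

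**Figure D5:**
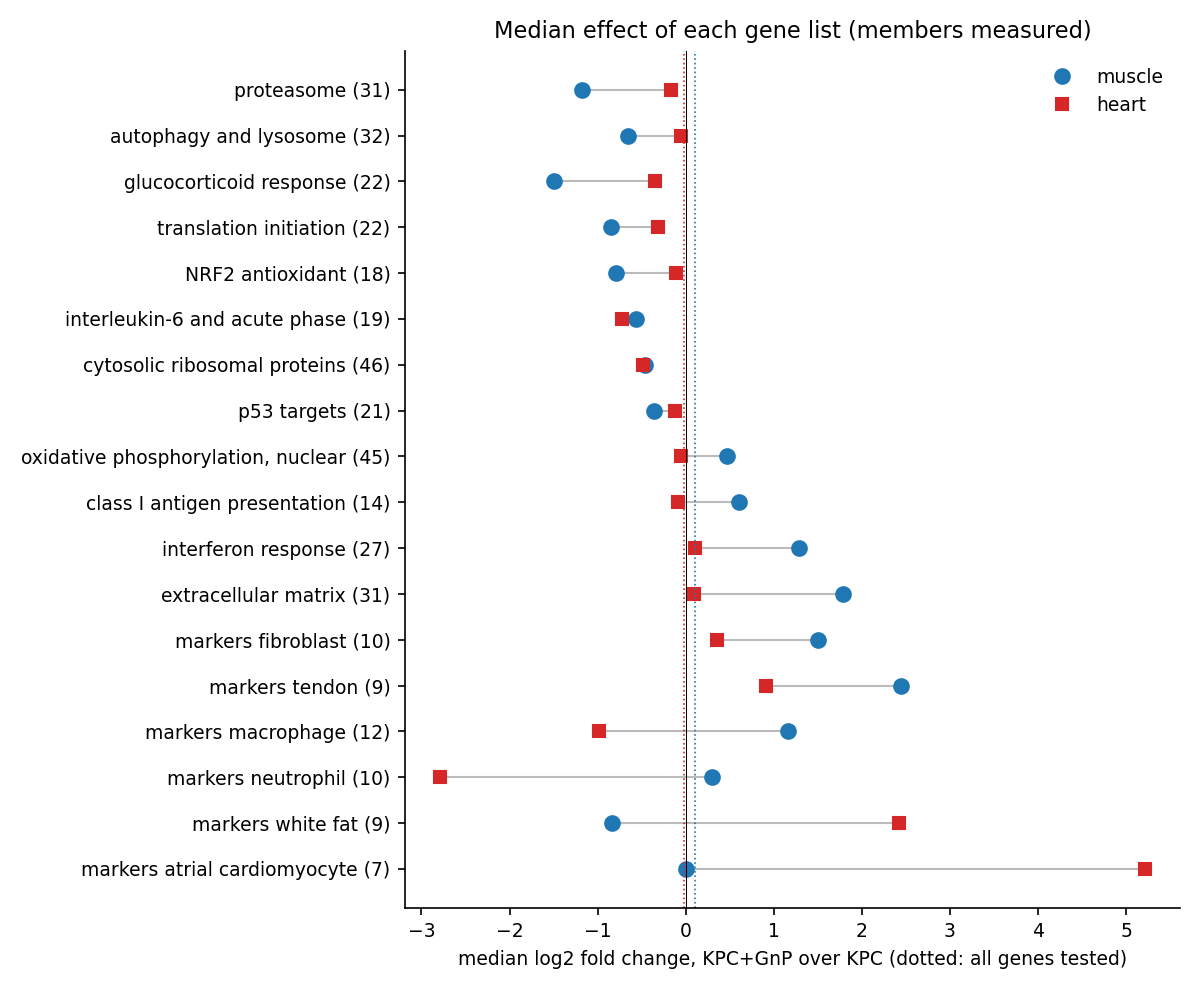
Median log2 fold change of KPC+GnP over KPC in muscle (circles) and heart (squares) for 18 gene lists, with dotted lines at the medians of all genes tested. The medians lie apart for the proteasome (-1.17 and -0.16) and macrophage markers (1.16 and -0.99), and close together for ribosomal proteins (-0.46 and -0.49).

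The share of all called differences that were higher in muscle also followed the scaling, at 48.7% with TMM over all libraries, 44.0% with TMM within each tissue, 40.0% under group weights and 75.7% with library totals. In the RefSeq windows, the 880 muscle-only genes that fell held the FoxO core in 2.95% and the receptor half-site in 12.7%. Over all windows the shares were 3.18% and 15%. For the 78 shared genes that fell the shares were 3.85% and 15.4%. None of 25 proteasome windows held the FoxO core and 4 held the receptor half-site. The FoxO core was in 2 of 16 windows of atrophy ligases, Trim63 among them. The windows of Foxo1, Klf15, Ddit4, Fkbp5, Pdk4 and Lcn2 held neither string, which says only that these letters are not in those 300 bases.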

How the data were processed

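RNA-seq libraries of skeletal muscle and heart were grouped by the treatment and tissue in the labels, and replicates are separate animals. The authors deposited 1 table of raw read counts per gene for each tissue. Per the file headers they also deposited log2 FPKM tables. The submitters' processing notes name FastQC 0.11.5, STAR 2.5, Subread 1.5.1, edgeR 3.12.1 and the build mm10. Which annotation and strand setting were used, and how multi-mapping reads were treated, is not stated in those sources. The deposited log2 FPKM values entered 1 alternative only. The muscle count column of animal 141 carries a suffix that its sample title lacks, and was matched by the animal number.

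Counts of all 24 libraries, controls included, were fitted in edgeR 4.0.16 (R 4.3.3) with 1 coefficient per group. Genes were kept by filterByExpr (minimum count 10, minimum total 15), libraries were scaled by TMM over both tissues, and quasi-likelihood F tests were adjusted by Benjamini-Hochberg within each contrast (threshold 0.05). The difference of effects was a contrast of the same fit. CPM values use the TMM-scaled library sizes. Alternatives used limma 3.58.1 and DESeq2 1.42.0, and the code was tested on simulated data. In the text, "group weights" means limma voom with 1 weight per group.

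Members, gene lists and rules were chosen with earlier results of these data known. Named genes were those with the largest differences, shared, opposite or single-tissue responses at a mean of at least 2 CPM, a fixed set of cachexia and cardiac genes, and up to 3 members per list with the smallest p of the difference. Dgat1, Gpihbp1, Ggta1, Lrg1, Il4ra, Nfkbia and Ucp1 were added after their values were seen.

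Animal numbers in the titles pair libraries across tissues. Deviations from the group means correlated between muscle and heart of the same animal from -0.189 to 0.097 over 5 pairs (median -0.011), and between different animals of a group from -0.185 to 0.267 over 27. Promoter windows came from RefSeq (GRCm38.p6) and gene positions from GENCODE vM21 (GRCm38).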

Additional observations from a re-analysis of the deposited data

Results flagged for a closer look

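The difference of effects itself passed the edgeR test for 3725 genes, and 61 genes were called in both tissues with opposite signs, the difference being called for each of them. Single libraries were also compared with the rest of their group of 4 by the gap to the nearest value relative to the group's range. Of 404 groups examined, 30 (7.43%) held such a library. The cut-off gives about 1 in 20 (5%) for normally distributed values. The CPM were not log-transformed and many genes were named for their results, so these shares cannot show an excess. Ucp1 and Cidea were not examined.

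Several of these values belonged to animal 141. In KPC muscle library 1, Fbxo32 was at 1803 CPM (others 8166 to 9436), Ddit4 at 59.3 (351 to 368), Prkg1 at 37.1 (13.3 to 14.2), Ndufs1 at 436 (279 to 297) and summed brown fat markers at 117 (49.6 to 56.4). In KPC heart library 2, Spp1 was at 275 CPM (1.2 to 26.3), Itgam at 275 (8.31 to 34.1), Nrg4 at 2.15 (0.739 to 0.935), T and B cell markers at 226 (1.97 to 8.38) and brown fat markers at 310 (562 to 611). In KPC heart library 1, Fbn1 was at 67.2 CPM (34 to 36.8), Myl4 at 134 (1.28 to 1.84), Glul at 662 (1007 to 1051) and atrial markers at 789 (67.8 to 145).

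In KPC muscle library 2, Dhrs7 was at 12.7 CPM (14.7 to 14.9), Flt1 at 116 (58.3 to 58.9), Gpihbp1 at 37.4 (18.2 to 20.8) and endothelial markers at 499 (312 to 322), and in KPC muscle library 4 Lrrc52 was at 2.41 (1.31 to 1.49). Among treated muscles, library 1 held 51.5 CPM of Klf15 (38.4 to 39.5) and 37.7 of Fbn1 (84.4 to 92.2), and library 2 held 30.2 of Mt2 (2.1 to 2.36) and 2.48 of Mfap4 (5.6 to 5.92). Library 3 of that group held 132 CPM of Phlda3 (168 to 175), 9.97 of Dgat1 (7.8 to 7.93) and 10.2 of Mcm2 (12 to 12.2). Among treated hearts, library 3 held 43.7 CPM of Lrg1 (25.2 to 27.8), 173 of Rpl35 (121 to 129) and 185 of neutrophil markers (8.23 to 29.8), and library 1 held 2373 of erythroid markers (303 to 496). Gene levels and marker sums of 1 library are not independent of each other.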

How the results depend on the processing

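The muscle count stayed within 1.5 times 6436 under every setting run, while the heart count, the difference and the classes moved. Without controls the heart count was 226, the difference 2191, and the shared, opposite, muscle-only and heart-only classes held 47, 13, 722 and 13 genes. Group weights gave 84, 1941, 20, 1, 917 and 6 in the same order. DESeq2 gave 1258 heart calls, 402 shared and 125 opposite genes, and limma on log2 FPKM gave 34 opposite genes. The cause was not tested.

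Some settings were chosen after seeing the data. Without animal 141 the heart count was 2308, the difference 6054, and the classes held 895, 383, 2588 and 186 genes. The heart fitted on its own gave 214. Leaving out 1 library gave muscle counts of 5174 to 7598, heart counts of 197 to 1591 and differences of 2867 to 5694. The classes then ranged from 45 to 459 shared, 11 to 196 opposite, 1118 to 2884 muscle-only and 16 to 141 heart-only genes.

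With animal as a random replicate block the difference was called for 3205 genes, against 3131 in limma voom without a block. The fixed block on 10 libraries gave 3 genes (1579 at an unadjusted p under 0.05) and the same libraries without the block 3 (1887, added after seeing the data), with fewer samples in both. The random block moved no count by over 1.5 times.

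Of 83 named genes with a difference value, 66 were called and 51 of those stayed called under every setting with at least 12 libraries. The same held for 53 of 67 muscle calls and 10 of 40 heart calls. Ucp1 and Cidea were not among the genes counted here, and their heart calls did not hold under group weights. No called difference of a counted gene changed sign, and 8 that were not called did. Many of these genes were named for their called results, so the counts describe the named genes alone. Over all genes tested, 3725 differences (25.7%) were called, of which 1877 were also called under group weights. With 4 animals per group and a median standard error of 0.21 log2 units in heart, small heart effects cannot be resolved.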

Other observations

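Counts for other gene lists are given beside the 25.7% of all genes tested that were called for the difference. Of 18 NRF2 antioxidant genes, 10 fell and 2 rose in muscle, 2 fell in heart, and 5 differences were called lower and 1 higher. Of 17 heat shock chaperones, 4 fell and 2 rose in muscle and 2 rose in heart, with 5 differences called lower and 1 higher. Of 19 genes of branched-chain amino acid and glutamine metabolism, 9 fell and 1 rose in muscle, 1 fell in heart, and 4 differences were called lower and 1 higher. Of 27 fatty acid oxidation genes, 6 fell and 2 rose in muscle, none was called in heart, and 5 differences were called lower. Of 19 circadian clock genes, 5 rose and 5 fell in muscle, none was called in heart, where 5.45% of all genes were, and 3 differences were called lower. Without animal 141, 4 of them were called higher in heart, and 4 differences were called higher and 5 lower. Schwann cell markers rose in muscle for 5 of 8 and in heart for 1, with 1 difference called higher. The called shares of the difference for the fatty acid oxidation, circadian and Schwann lists lay below that of all genes, and the share for branched-chain amino acid metabolism lay close to it.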
